A study of Arabidopsis thaliana with 17 samples.

Results

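Restoration of 24 nt siRNAs was measured in NRPD1-3xF_WT flowers, in which FLAG-tagged intact NRPD1 was expressed in nrpd1-3 plants, against Col-0 flowers. All 12939 siRNA clusters of the deposited table were members, with no filter on their level. Of the 17 samples of the series, 12 have a column in that table, and the 4 libraries compared here were NRPD1-3xF_WT replicates 1 and 2 and Col-0 replicates 1 and 2. The NRPD1-3xF_WT plants carry the nrpd1-3 T-DNA insertion and a transgene with the genomic NRPD1 sequence, driven by the NRPD1 promoter and tagged with 3xFLAG. For its immunoprecipitation experiments the study selected T2 plants of these lines with strong expression of the tagged protein. Whether the plants sequenced here were selected in the same way is not stated. Col-0 is the untransformed wild-type accession and carries neither the insertion nor the transgene. Both nrpd1-3 null libraries are given beside these values as the level without NRPD1. The replicates are biological replicates by the study's account, but whether the NRPD1-3xF_WT replicates came from separate lines is not given in the sources used here. With 2 libraries against 2, an exact permutation test cannot go below p = 0.333.

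NRPD1 is the largest subunit of RNA polymerase IV (Pol IV), the plant polymerase that transcribes transposons and repeats into short precursors of siRNAs. RDR2 copies these transcripts into double-stranded RNA, DCL3 cuts this RNA into 24 nt siRNAs, and siRNAs bound to AGO4-type proteins direct DNA methylation through transcripts of RNA polymerase V (Pol V). The CLASSY (CLSY) proteins direct Pol IV to different sets of loci. In nrpd1-3 plants this pathway lacks its siRNAs. The siRNA level of a cluster in NRPD1-3xF_WT, relative to Col-0, is read here as its restoration. Replacement by the tagged protein cannot be told apart from other differences between the transformed line and Col-0.

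The loci at both extremes of the comparison are shown first. Each line gives the first 120 bases from the cluster start on the plus strand, 5′ to 3′, from RefSeq TAIR10.1, with CG dinucleotides (a context of DNA methylation) in capitals. The first 3 clusters were close to absent in NRPD1-3xF_WT and high in Col-0, and the last 3 were high in NRPD1-3xF_WT and low in Col-0.
chr1:24250883-24251002: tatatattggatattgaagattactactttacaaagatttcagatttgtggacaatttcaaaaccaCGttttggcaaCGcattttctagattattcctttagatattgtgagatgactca
chr2:13702456-13702575: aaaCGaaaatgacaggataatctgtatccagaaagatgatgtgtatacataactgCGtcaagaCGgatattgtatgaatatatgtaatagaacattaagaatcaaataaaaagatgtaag
chr1:19180321-19180440: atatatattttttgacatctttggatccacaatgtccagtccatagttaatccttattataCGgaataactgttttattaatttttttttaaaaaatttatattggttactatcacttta
chr2:1521427-1521546: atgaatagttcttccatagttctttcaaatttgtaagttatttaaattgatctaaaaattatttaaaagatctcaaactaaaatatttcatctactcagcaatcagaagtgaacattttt
chr2:9670895-9671014: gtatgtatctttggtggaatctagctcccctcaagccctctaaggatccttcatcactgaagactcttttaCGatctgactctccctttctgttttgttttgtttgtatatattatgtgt
chr2:1469142-1469261: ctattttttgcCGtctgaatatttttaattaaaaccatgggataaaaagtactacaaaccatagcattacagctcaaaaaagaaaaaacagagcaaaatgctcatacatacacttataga

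The 3 unrestored loci held 2, 3 and 1 CG dinucleotides in these bases, and the 3 raised loci held 0, 1 and 1. This order is not that of the full sets. In the first 300 bases of all clusters called lower or higher below, the medians were 5 and 7. Over the first 120 bases of all 12902 nuclear clusters the median was 2, and 84.7% held at least 1. At the first 5 of the loci shown at least 99.6% of the 24-mers in the first 300 bases were single-copy in the genome. The share was 80.1% at chr2:1469142.

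Most clusters regained siRNAs, and the typical cluster exceeded its Col-0 level. The mean level in NRPD1-3xF_WT was between 50% and 200% of the Col-0 mean at 10284 clusters (79.5%), under 50% at 1053 clusters and over 200% at 1601 clusters. Between the Col-0 replicates the same limits held 12877 clusters (99.5%), with 18 under 50% and 43 over 200%. The median cluster stood at 137% of the Col-0 mean in NRPD1-3xF_WT replicate 1 and at 125% in replicate 2. The quartiles of the per-cluster mean were 102% and 168%. Subtraction of the nrpd1-3 level from both genotypes left the median at 132%, over the 12917 clusters that were higher in Col-0 than in nrpd1-3.

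The median log2 fold change of NRPD1-3xF_WT over Col-0, on the log2(RPKM + 1) scale used for all fold changes here, was 0.35 ± 0.088 (SD of the 2 library medians). It was 0.42 in replicate 1 and 0.29 in replicate 2, and the median difference of Col-0 replicate 1 from replicate 2 was 0.057. Both NRPD1-3xF_WT libraries lay above both Col-0 libraries at 8618 clusters (66.6%) and below both at 2390 (18.5%). The siRNA level summed over clusters was 96.0% and 88.1% of the Col-0 mean in the NRPD1-3xF_WT libraries, against 102.7% and 97.3% in the Col-0 libraries. The nrpd1-3 libraries held 5.81% and 7.10%. Without 1 cluster beside MIR163, described below, nrpd1-3 held 1.79% and 2.38%. A rescaling that gives every library the same median lowered the median log2 fold change by 0.16, to 0.19, so changes are best read relative to the shift of all clusters.

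In the limma test (a log2 fold change of at least 1 in either direction and a Benjamini-Hochberg adjusted p under 0.01 over all 12939 clusters), 1004 clusters fell in NRPD1-3xF_WT (7.76%) and 706 rose (5.46%). Higher calls were thus 41.3% of all calls. With equal library medians 1154 clusters fell and 368 rose, and higher calls made up 24.2%. With a pseudocount of 0.1 in place of 1, 1050 fell and 1464 rose. The clusters that fell were abundant in Col-0. Their median level was 7.97 RPKM in NRPD1-3xF_WT, against 44.7 RPKM in Col-0 and 0.045 RPKM in nrpd1-3. They held 7.41% of the summed level in NRPD1-3xF_WT, against 26.0% in Col-0. The clusters that rose had a median of 11.2 RPKM in NRPD1-3xF_WT, against 4.18 RPKM in Col-0, and held 4.48% of the NRPD1-3xF_WT sum, against 1.55% of the Col-0 sum.

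**Figure D1:**
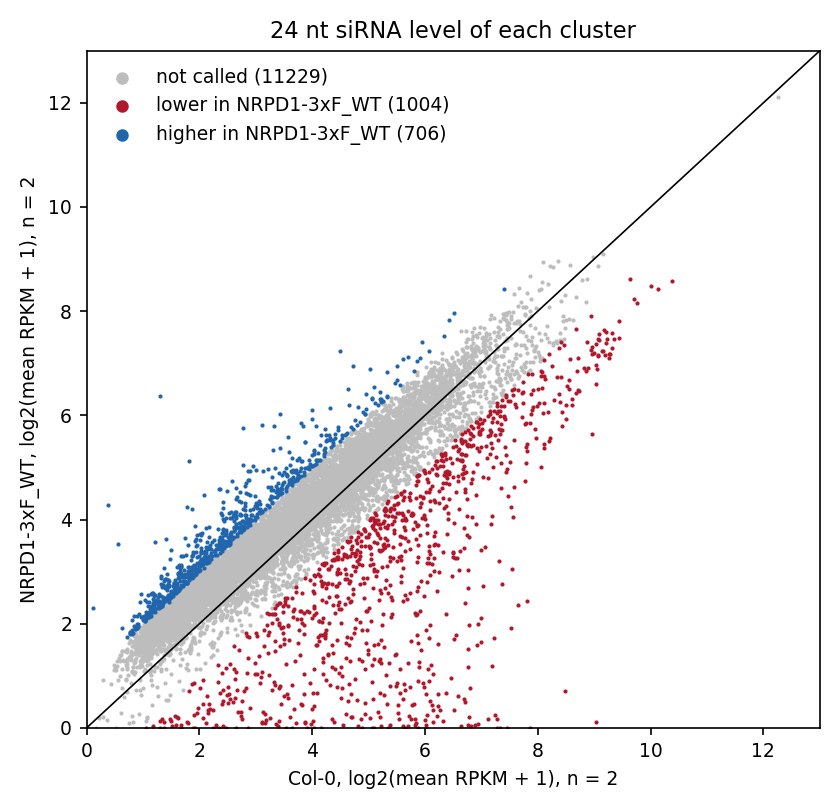
Each point is 1 of 12939 clusters, with the mean level of 2 Col-0 libraries on the x axis and of 2 NRPD1-3xF_WT libraries on the y axis, both as log2(RPKM + 1); the line marks equal levels. The 1004 clusters called lower (red) fan out to the x axis at high Col-0 levels, and the 706 called higher (blue) lie mostly at low Col-0 levels.

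The shortfall ran from partial to complete. Of the clusters under 50% of Col-0, 520 lay between 25% and 50%, 234 between 10% and 25%, 98 between 5% and 10%, 102 between 1% and 5%, and 99 below 1%. Among the 9147 clusters with at least 5 RPKM in Col-0, 257 were under 10% of Col-0, with a median of 0.735 RPKM in NRPD1-3xF_WT and 43.1 RPKM in Col-0. At 58 of the 9147, neither NRPD1-3xF_WT library exceeded the higher nrpd1-3 library. This count set no limit on the percent of Col-0. It includes the cluster beside MIR163, described below, which stood at 90.4% of Col-0 and is no measure of restoration. Both NRPD1-3xF_WT libraries were listed at 0 at 30 of all clusters. RPKM carries no read count for a cluster, so a value listed at 0 has no stated detection limit.

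The 10 called clusters with the lowest fold changes were near the null level throughout. Their levels ranged from 0 to 0.81 RPKM in NRPD1-3xF_WT and from 112 to 574 RPKM in Col-0. The highest value of these clusters in any of the 8 other libraries of the table (nrpd1-3, clsy quad and the AAA-YPMF and CYC-AAAA variants of tagged NRPD1) was 1.59 RPKM. All 10 were in the highest decile of clusters by Col-0 level, which follows from choosing the lowest fold changes. Values of log2(RPKM + 1) cannot fall below 0, and that decile starts at 61.71 RPKM. A log2 fold change of -6.87 or lower needs a higher Col-0 level than that. Of the 10, 8 lay in chromosome arms, as did 849 of the 1294 clusters of that decile. Of the 10, 9 started within 2 kb of a protein-coding gene, as did 6061 of all clusters. Whether these 2 counts exceed those shares was not tested.

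The cluster at chr1:24250883, 447 bp from the gene of the mitochondrial acyl carrier protein mtACP2, had 0.15 and 0 RPKM in NRPD1-3xF_WT, against 574.1 and 476.5 RPKM in Col-0, and was listed at 0 in both nrpd1-3 libraries. Its log2 fold change was -8.93 ± 0.13 (SE, limma adjusted p = 2.61e-19). The libraries of both genotypes did not overlap, which was a condition for choosing these clusters. Those of the tagged protein lay close to the null level. At chr1:19180321, 126 bp from the ubiquitin protease gene UBP6, the levels were 0.81 and 0.46 RPKM in NRPD1-3xF_WT, against 364.7 and 351.0 RPKM in Col-0 and 0.87 and 0 RPKM in nrpd1-3. This cluster too was within the range of the null libraries. At chr2:13702456, 782 bp from a long non-coding RNA gene (AT2G08505), both NRPD1-3xF_WT libraries were listed at 0, against 226.8 and 239.3 RPKM in Col-0. Both were also listed at 0 at chr3:9848096, in the transcribed pseudogene AT3G26775 (177.0 and 171.5 RPKM in Col-0), and at chr2:10138064, 469 bp from the tetraspanin gene TET8 (182.6 and 137.6 RPKM in Col-0). The fourth cluster listed at 0 in both was chr5:8893265, 229 bp from CID6, with 179.6 and 128.3 RPKM in Col-0. It was the only cluster of the 10 within 3 Mb of the gene-poorest window of its chromosome.

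The remaining 4 of these clusters, at chr5:15006540 (273 bp from the calmodulin gene CAM1), chr5:21155496, chr1:3919979 and chr3:23130733, had between 0 and 0.28 RPKM in NRPD1-3xF_WT. In Col-0 they had between 112 and 162 RPKM. The wide gap from Col-0 follows from choosing the clusters with the lowest fold changes.

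The 10 called clusters with the highest fold changes ranged from 10.2 to 160 RPKM in NRPD1-3xF_WT and from 0.3 to 21.7 RPKM in Col-0. Their highest value in the 8 other libraries was 1.94 RPKM, so siRNAs at these loci were near absent without NRPD1 and with either variant. Of the 10, 5 lay within 3 Mb of the gene-poorest window and 5 in the arms, and 9 were in the lower 5 deciles by Col-0 level.

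At chr2:1521427, 304 bp from the protein-coding gene AT2G04360, the levels were 86.8 and 76.5 RPKM in NRPD1-3xF_WT, against 1.53 and 1.39 RPKM in Col-0. The mean was 55.9-fold that of Col-0, and the log2 fold change was 5.07 ± 0.13 (SE, limma adjusted p = 1.00e-16). A cluster nearby, at chr2:1469142, had 33.5 and 34.5 RPKM in NRPD1-3xF_WT, against 2.13 and 2.92 RPKM in Col-0. Both loci lie near the gene-poor center of chromosome 2. In the arm of the same chromosome, at chr2:9670895, the levels were 18.8 and 18.2 RPKM in NRPD1-3xF_WT and 0.3 RPKM in each Col-0 library. The nrpd1-3 libraries there had 0 and 0.52 RPKM, so the Col-0 value lay within their range.

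Not all of the raised clusters were at the lowest Col-0 levels. The cluster at chr5:14521279, within GSL09, a gene of the callose synthase family, had 160.0 and 139.0 RPKM in NRPD1-3xF_WT, against 21.7 and 21.5 RPKM in Col-0 (log2 fold change 2.73 ± 0.11, SE, limma adjusted p = 7.72e-14). The cluster at chr1:9001092, 1175 bp from SOG1, which encodes a transcription factor of the DNA damage response, had 67.9 and 60.3 RPKM in NRPD1-3xF_WT, against 8.97 and 10.5 RPKM in Col-0. The other 5 raised clusters, at chr3:19673016, chr4:6595399, chr1:25577748, chr4:5802399 and chr4:5124352, had log2 fold changes between 2.46 and 2.99. At all 10, both NRPD1-3xF_WT libraries lay above both Col-0 libraries, which was a condition for choosing them.

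**Figure D2:**
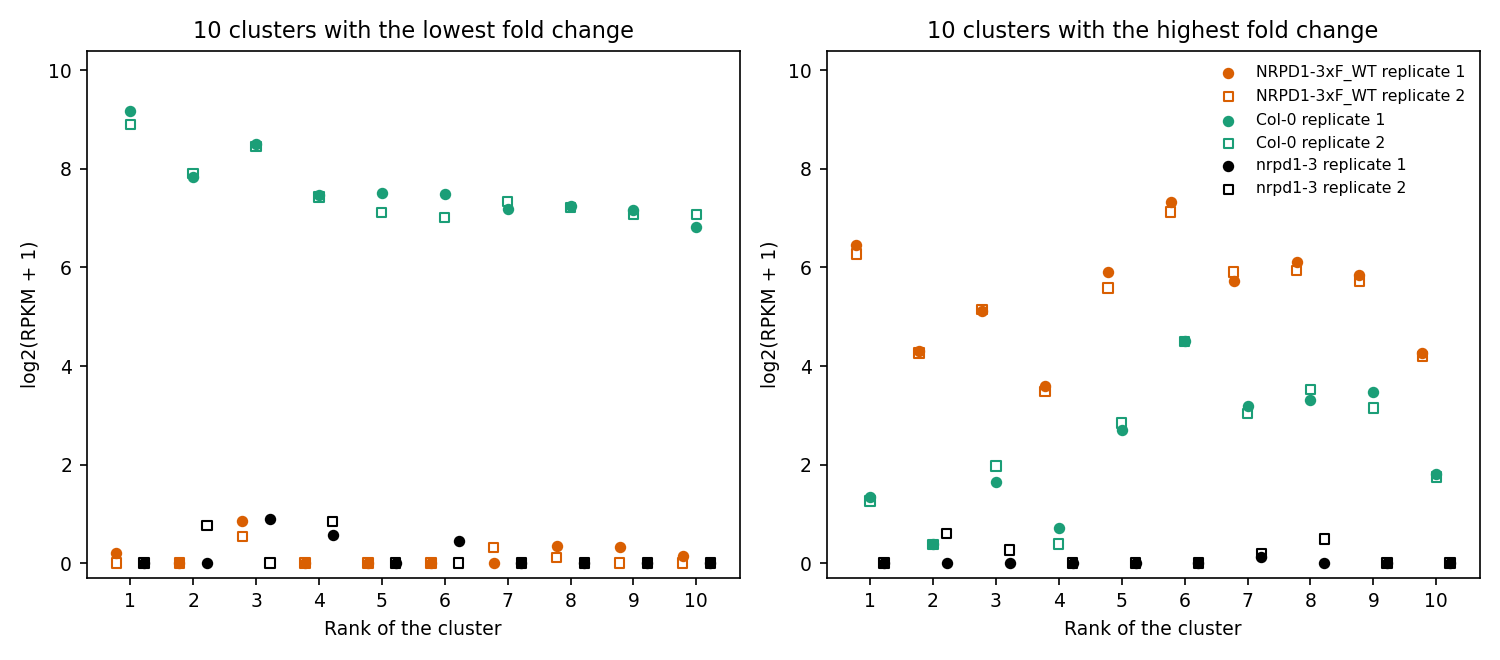
Levels in each library, as log2(RPKM + 1), of the 10 called clusters with the lowest fold changes (left) and the 10 with the highest (right), ranked by fold change; colors mark NRPD1-3xF_WT, Col-0 and nrpd1-3. At left all NRPD1-3xF_WT values are at or below 0.81 RPKM beside the nrpd1-3 values, and at right all are at or above 10.2 RPKM.

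Restoration varied with the Col-0 level. Clusters were ranked by mean Col-0 RPKM into 10 deciles of 1293 or 1294 clusters. The median log2 fold change was 0.67 in the lowest decile, 0.65 in the second, 0.56 in the third, 0.46 in the fourth and 0.35 in the fifth. It went on to 0.29, 0.24, 0.16 and 0.10 in the next 4 deciles and to -0.30 in the highest. The median level of the lowest decile was 2.96 RPKM in NRPD1-3xF_WT, against 1.52 RPKM in Col-0, and the median of the per-cluster percent of Col-0 was 201%. In the highest decile the median level was 85.6 RPKM in NRPD1-3xF_WT, against 101 RPKM in Col-0, and the median percent was 80.9%. Both NRPD1-3xF_WT libraries gave this order: from the lowest to the highest decile the medians went from 0.74 to -0.27 in replicate 1 and from 0.60 to -0.36 in replicate 2. The median difference between the Col-0 replicates lay between -0.01 and 0.09 in every decile.

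The difference between the lowest and the highest decile was 0.97. When 1 Col-0 replicate set the level and the other the fold change, it was 0.94 and 0.96. In that split, level and fold change share no Col-0 library, but deviations common to both Col-0 replicates remain in both. Ranked by the mean of all 4 libraries, it was 0.54. Among the 5268 clusters with at least 90% single-copy 24-mers in their first 300 bases, it was 1.50. No test was made of this value.

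Calls followed the level. In the lowest decile 1.08% of clusters fell and 13.2% rose, and in the highest decile 31.0% fell and 0.386% rose, against 7.76% and 5.46% over all clusters. On the log2(RPKM + 1) scale, a cluster under 1 RPKM in Col-0 cannot fall by the limit of 1. The lowest decile reached only 2.075 RPKM in Col-0, so the scale itself held down its share of falls. The scale also shrinks rises at low levels, and with a pseudocount of 0.1 in place of 1, 1464 clusters rose. The highest decile held 401 of the 1004 clusters that fell. Clusters under 10% of Col-0 made up between 0.695% and 1.55% of each of the lowest 7 deciles, 2.78% and 4.95% of the next and 6.65% of the highest.

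**Figure D3:**
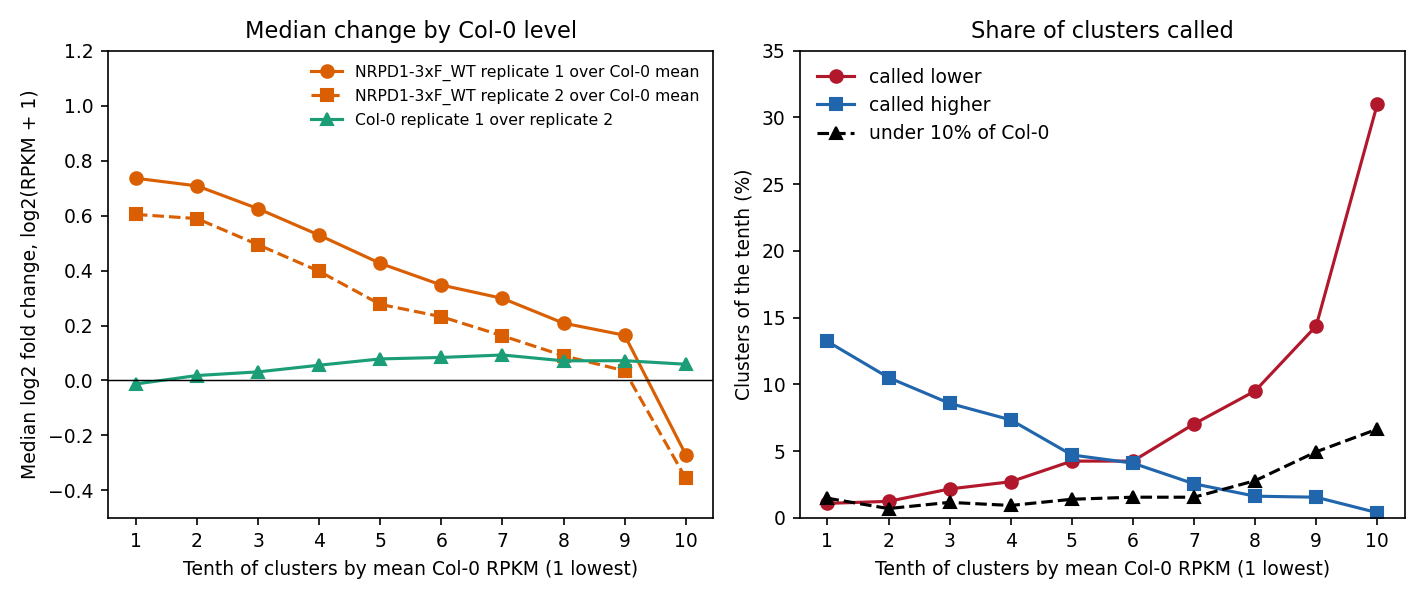
Left, median log2 fold change of each NRPD1-3xF_WT library over the Col-0 mean, and of Col-0 replicate 1 over replicate 2, in deciles of clusters by Col-0 level; right, the share of each decile called lower, called higher or under 10% of Col-0. The NRPD1-3xF_WT lines pass from above 0.5 in the lowest decile to below 0 in the highest while the Col-0 line stays within 0.1 of 0, and lower calls reach 31.0% in the highest decile.

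The 129 most abundant clusters in Col-0 (the highest 1%) had the lowest restoration of the level groups. Their median level was 155 RPKM in NRPD1-3xF_WT, against 363 RPKM in Col-0, and 85 of them fell (65.9%, against 7.76% of all clusters). Only 3 were under 10% of Col-0. Their summed level was 48.0% and 45.8% of Col-0 in the NRPD1-3xF_WT libraries, and the sum over the rest of the highest decile was 82.5% and 76.4%. The sums over the 129 include the cluster beside MIR163, the highest of all in Col-0, which stood at 90.4% of Col-0. That cluster is no measure of restoration, as described below.

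The 5 clusters with the highest Col-0 means show this range. The cluster at chr3:15680917 had 395.3 and 365.5 RPKM in NRPD1-3xF_WT, against 1380 and 1292 RPKM in Col-0 and at most 0.38 RPKM in nrpd1-3. At chr4:13902361, 361 bp from the abscisic acid receptor gene PYL10, the levels were 356.5 and 325.3 RPKM in NRPD1-3xF_WT, against 1137 and 1098 RPKM in Col-0. The clusters at chr4:5438259 and chr4:2558980 stood at 34.4% and 33.0% of Col-0. These 4 clusters thus lay between 28.5% and 34.4% of Col-0, and all fell in the limma test, with log2 fold changes between -1.81 and -1.54. The fifth, at chr1:24884060 and 6 bp from the microRNA gene MIR163, had 4301 and 4534 RPKM in NRPD1-3xF_WT, against 4813 and 4956 RPKM in Col-0. It had 14422 and 16969 RPKM in nrpd1-3, so its 24 nt reads did not depend on NRPD1 and it is no measure of restoration.

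Along the chromosomes, clusters were placed by the distance of their start from the middle of the 500 kb window with the fewest protein-coding genes. The 7199 clusters within 3 Mb of it are called pericentromeric, also where they lie within 1 Mb of a chromosome end. Of the rest, the 411 within 1 Mb of a chromosome end are called ends, and the other 5292 nuclear clusters are called arms. The median log2 fold change was 0.49 in the pericentromeric clusters, 0.17 in the arms and 0.18 at the ends. It was 0.55 against 0.23 between pericentromere and arms in NRPD1-3xF_WT replicate 1 and 0.43 against 0.11 in replicate 2. Of the pericentromeric clusters 3.11% fell and 7.81% rose. In the arms 13.6% fell and 2.48% rose, and at the ends 14.1% fell and 0.730% rose. Summed siRNAs stood at 112.6% and 103.5% of Col-0 in the pericentromeres and at 86.8% and 79.8% in the arms of the NRPD1-3xF_WT libraries.

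All 5 chromosomes had this order. Pericentromeric medians lay between 0.45 (chromosome 1) and 0.54 (chromosome 3), and arm medians between 0.15 (chromosome 2) and 0.20 (chromosome 5). With distance, the median cluster passed from 162% of Col-0 within 1 Mb to 155% between 1 and 2 Mb, 132% between 2 and 3 Mb, 120% between 3 and 5 Mb, 113% between 5 and 8 Mb, 107% between 8 and 12 Mb and 105% beyond. The share of clusters that fell was 1.09% within 1 Mb and 16.8% beyond 12 Mb. Clusters under 10% of Col-0 made up 0.136% of those within 1 Mb and 6.36% of those between 8 and 12 Mb.

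Col-0 level changed with position as well. The median Col-0 level was 5.99 RPKM in the pericentromeres and 20.7 RPKM in the arms. When each fold change was taken relative to the median of its level decile, the pericentromere exceeded the arms by 0.095 in place of 0.32. Within each of the 10 deciles the pericentromeric median was higher, by between 0.018 and 0.29. The difference in lower calls remained at matched level: in the highest decile 24.2% of 384 pericentromeric and 34.2% of 849 arm clusters fell, and in the sixth decile 1.69% of 592 and 6.47% of 649. Among clusters with at least 5 RPKM in Col-0, 35 of 3987 pericentromeric clusters (0.878%) were under 10% of Col-0, against 205 of 4793 arm clusters (4.28%) and 17 of 366 at the ends (4.64%).

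**Figure D4:**
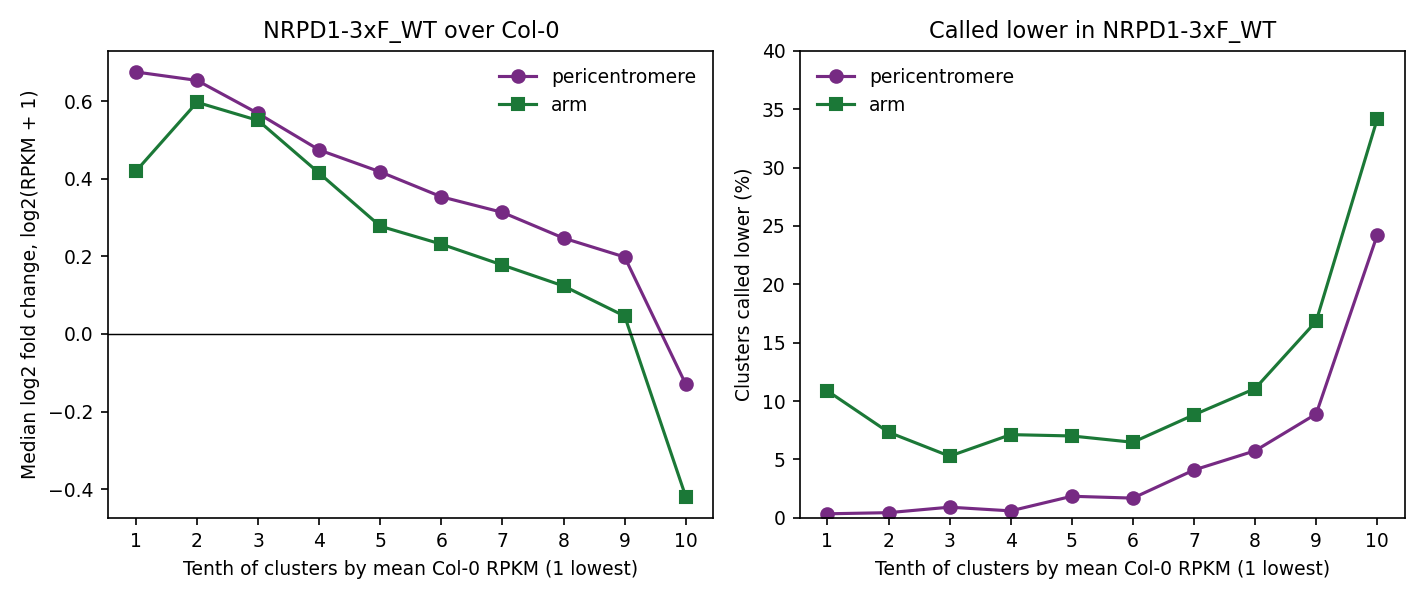
Median log2 fold change of NRPD1-3xF_WT over Col-0 (left) and share of clusters called lower (right) in deciles by Col-0 level, for pericentromeric and arm clusters. The pericentromeric line lies above the arm line at left in all 10 deciles, by 0.018 to 0.29, and below it at right in all 10.

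Bins of 1 Mb were compared with limma on the mean log2(RPKM + 1) of their clusters, with a log2 fold change of at least 0.5 as the limit. Of 116 bins with at least 20 clusters, 12 fell (10.3%) and 10 rose (8.62%). All 10 that rose had their centers within 1.75 Mb of the gene-poorest window, and all 12 that fell were at least 7.25 Mb away. The bins share the same 4 libraries, so their p-values are not independent. The calls were also unstable: without Col-0 replicate 1, 2 bins fell and 0 rose, and without Col-0 replicate 2, 3 fell and 0 rose. Without NRPD1-3xF_WT replicate 1, 19 fell and 4 rose. With libraries rescaled to their 21 nt reads 2 fell and 0 rose, and with equal medians 31 fell and 2 rose. The order of the bins is therefore given as a description.

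The lowest bin was chr3:1000001-2000000, where the means of log2(RPKM + 1) were 3.65 and 3.61 in NRPD1-3xF_WT, against 4.86 and 4.78 in Col-0 (log2 fold change -1.19 ± 0.09, SE). Of its 26 clusters 9 fell and 1 rose. The bin chr4:13000001-14000000 had means of 4.19 and 4.06 in NRPD1-3xF_WT, against 5.17 and 5.10 in Col-0, and 9 of its 26 clusters fell. The median cluster of that bin had a log2 fold change of 0.051, above the mean change of the bin. At chr3:21000001-22000000 the means were 4.65 and 4.57 in NRPD1-3xF_WT and 5.37 and 5.32 in Col-0, and 5 of 25 clusters fell.

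The 3 highest bins lay at or near the gene-poorest windows. In chr3:12000001-13000000 the means were 3.25 and 3.13 in NRPD1-3xF_WT, against 2.51 and 2.47 in Col-0 (log2 fold change 0.70 ± 0.09, SE), with 44 of 274 clusters higher and 0 lower. The neighboring chr3:13000001-14000000 had 2.81 and 2.67 in NRPD1-3xF_WT, against 2.09 and 2.05 in Col-0, with 44 of 219 clusters higher. In chr2:3000001-4000000 the means were 2.79 and 2.67 in NRPD1-3xF_WT and 2.12 and 2.10 in Col-0. Here the rise was spread over the bin, as the median cluster had a log2 fold change of 0.63. Over all 116 bins the median cluster was above 0 in 102, and only 7 bins held no cluster that fell.

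**Figure D5:**
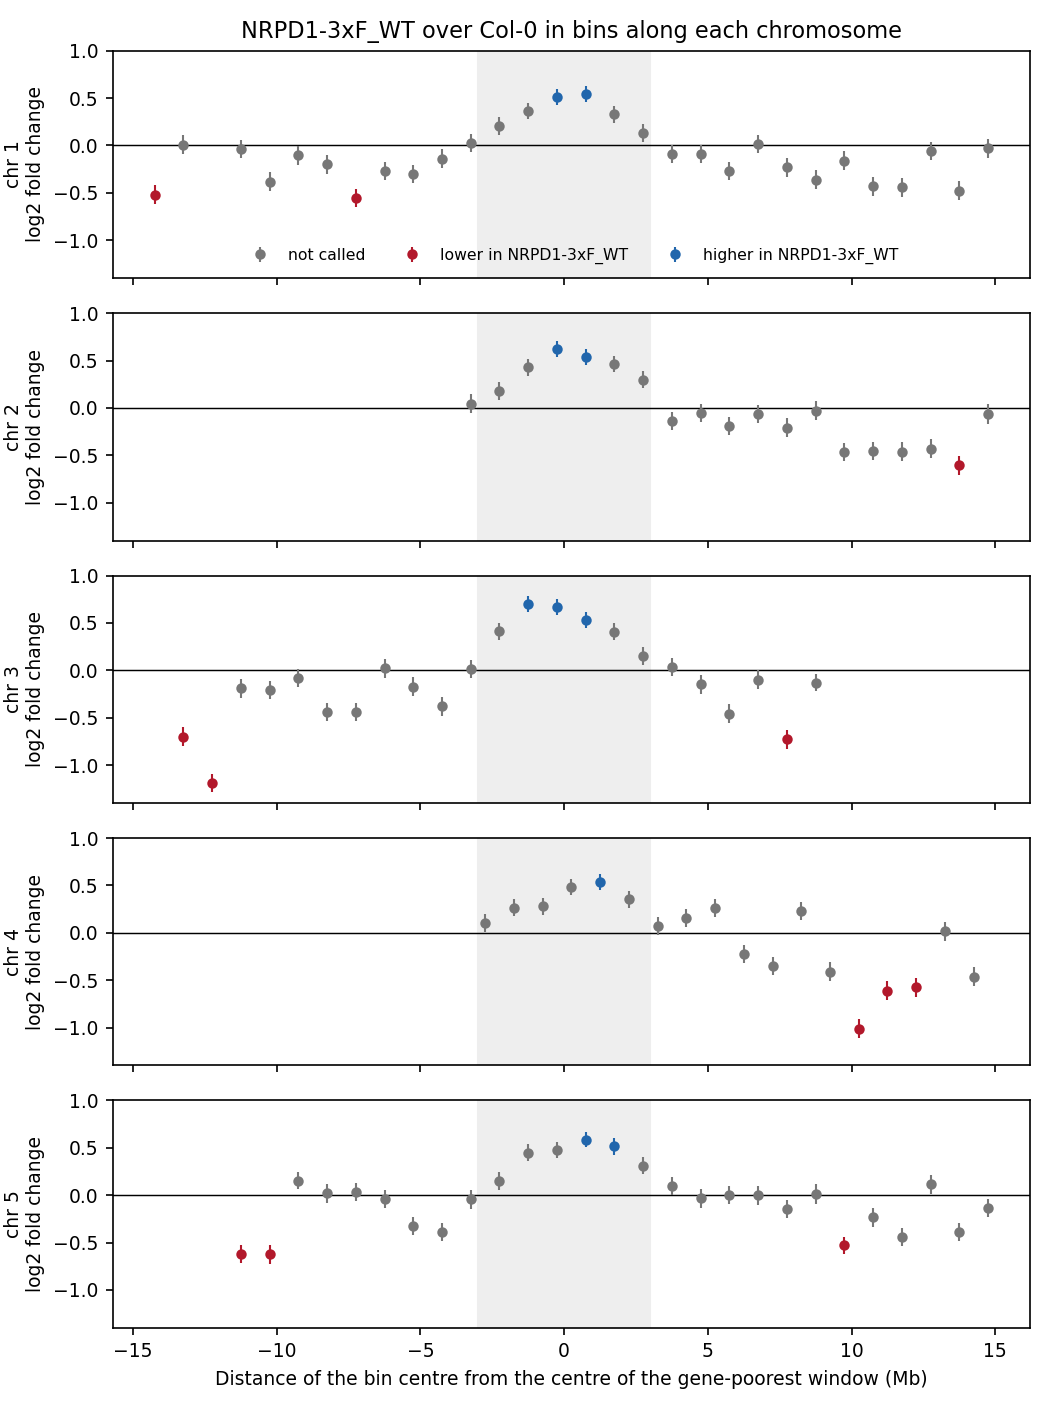
Log2 fold change of NRPD1-3xF_WT over Col-0 in bins of 1 Mb with at least 20 clusters, 1 panel per chromosome, against the distance in Mb of the bin center from the gene-poorest window; bars are standard errors from limma, shading marks 3 Mb on either side. On every chromosome the highest bin lies within the shaded stretch, where all 30 bins are above 0 (0.10 to 0.70), and the called lower bins lie outside it.

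Clusters that fell were mostly single loci. They formed 814 runs along the chromosomes, 657 of which held 1 cluster, and the longest held 5 (chr1:7786928 to chr1:7810746, median log2 fold change -2.85). For 761 of the 1004, the nearest cluster was not called, and for 211 it also fell, while the nearest cluster fell for 6.33% of clusters not called. The median log2 fold change of the nearest cluster was 0.087. Clusters that rose formed 538 runs, the longest of 7 clusters on chromosomes 3 and 5, and 23.1% of them had a nearest cluster that also rose, against 4.29% of clusters not called.

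Both kinds of call differed in what the annotation has at the cluster start. The 1722 clusters in pseudogenes, which in this RefSeq annotation include many transposon genes, had a median log2 fold change of 0.61, with 1.86% lower and 9.35% higher. The 6061 clusters within 2 kb of a protein-coding gene had a median of 0.23, with 11.3% lower and 3.43% higher, and the 1347 inside protein-coding genes had 0.28, with 11.6% lower and 4.83% higher. The 153 in non-coding RNA genes had a median of 0.23, with 13.1% lower and 8.50% higher. The 3619 clusters that started in none of these gene classes and over 2 kb from any protein-coding gene had a median of 0.45, with 3.01% lower and 6.88% higher. Of the 1004 clusters that fell, 84.0% were in or near protein-coding genes, against 57.4% of all nuclear clusters and 39.2% of those that rose. The 37 clusters on the mitochondrial sequence, with a median of 2.66 RPKM in NRPD1-3xF_WT, against 1.05 RPKM in Col-0, had a median log2 fold change of 0.80. Annotation class, position and level move together, and their separate parts were not tested.

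Sequence followed the same division. Of the clusters that fell, 75.6% had at least 90% single-copy 24-mers in their first 300 bases, against 40.8% of all nuclear clusters and 42.8% of those that rose. In clusters with under 10% single-copy 24-mers 2.29% fell, in those with 10 to 50% 1.07% fell, in those with 50 to 90% 4.77% fell and in those with 90% or more 14.4% fell. In the highest decile by level the shares were 26.3% of 19, 13.7% of 51, 18.5% of 324 and 36.6% of 900 clusters. Reads that map to several places were distributed among them by the aligner, so the levels of repeated clusters are less local than those of single-copy clusters. Across the 12902 nuclear clusters, which share the same libraries, the log2 fold change had a Pearson r of -0.19 with the single-copy share and 0.19 with GC content (Spearman rho -0.17 and 0.29). The clusters that rose had a median GC content of 36.0% and 7 CG dinucleotides in 300 bases, those that fell 30.0% and 5, and all nuclear clusters 32.0% and 6.

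Of 18 genes of the RNA-directed DNA methylation pathway and of its known targets, 10 had a cluster in the gene or within 2 kb, with 11 clusters in all. Of these 3 fell and 0 rose, against 7.76% and 5.46% of all clusters, and their median log2 fold change was 0.26. NRPD1 itself, at AT1G63020, had none, nor did CLSY2, SHH1, AGO4, AGO6, AGO9, DRM2 or ROS1. None of the 11 exceeded 1.09 RPKM in any of the 8 libraries of nrpd1-3, clsy quad and the NRPD1 variants.

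Among genes of siRNA production, the cluster 255 bp from NRPD2 (chr3:8574464), which encodes a subunit shared by Pol IV and Pol V, had 2.33 and 2.19 RPKM in NRPD1-3xF_WT, against 95.4 and 85.7 RPKM in Col-0. It stood at 2.50% of Col-0 (log2 fold change -4.81 ± 0.13, SE, limma adjusted p = 1.48e-16). The cluster at chr3:15752744 started within 2 kb of DCL3 and 55 bp from AT3G43910. Its levels were 12.0 and 11.4 RPKM in NRPD1-3xF_WT, against 32.0 and 28.3 RPKM in Col-0 (log2 fold change -1.29 ± 0.12, SE, limma adjusted p = 6.06e-08). Both genotypes were well apart at these loci. At chr4:6784693, beside RDR2, the levels were 8.73 and 7.16 RPKM in NRPD1-3xF_WT and 3.07 and 4.25 RPKM in Col-0. The log2 fold change of 0.95 missed the limit of 1, which it passed with a pseudocount of 0.1 (1.11), without NRPD1-3xF_WT replicate 2 (1.07) and without Col-0 replicate 2 (1.13).

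Among the CLSY genes, the cluster 865 bp from CLSY1 (chr3:14761494) fell, with 8.59 and 8.07 RPKM in NRPD1-3xF_WT, against 19.7 and 18.9 RPKM in Col-0 (log2 fold change -1.12 ± 0.13, SE, limma adjusted p = 4.89e-07). The cluster by CLSY3 (chr1:1617532) had 20.6 and 16.3 RPKM in NRPD1-3xF_WT, against 14.8 and 13.9 RPKM in Col-0. The one by CLSY4 (chr3:8835922) had 26.0 and 22.8 RPKM in NRPD1-3xF_WT, against 26.7 and 23.1 RPKM in Col-0. The ranges overlapped at CLSY4 and not at CLSY3, and neither cluster was called. The cluster by NRPE1 (chr2:16714017), the largest subunit of Pol V, had 20.4 and 16.6 RPKM in NRPD1-3xF_WT, against 12.1 and 11.1 RPKM in Col-0, and was not called.

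Clusters by known targets of the pathway were not called. At FWA, an imprinted homeobox gene that is silenced by methylation of repeats at its start, the cluster at chr4:13038163 had 19.8 and 17.9 RPKM in NRPD1-3xF_WT, against 25.8 and 28.5 RPKM in Col-0, or 69.3% of Col-0. The cluster at chr2:7680791 started within 2 kb of SDC, an F-box gene silenced by the pathway, and 413 bp from AT2G17680. It had 25.4 and 22.0 RPKM in NRPD1-3xF_WT and 20.9 and 18.3 RPKM in Col-0. The clusters at chr3:12348810 and chr3:12351620 started within 2 kb of QQS, an orphan gene with heritable variation in methylation. Their nearest annotated genes were the pseudogenes AT3G30722 and AT3G30724, and they stood at 137% and 187% of Col-0. At chr3:12351620 the log2 fold change was 0.86, and 1.03 without Col-0 replicate 1.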

How the data were processed

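Small RNAs of flowers were sequenced from 2 biological replicates per genotype. The authors trimmed adapters with cutadapt, mapped reads to TAIR10 with ShortStack allowing a mismatch, and kept perfect matches and reads with a mismatch at the 3′ end. They deposited RPKM values, with 2 decimals, of the 24 nt reads in 12939 siRNA clusters, computed by HOMER 4.10 and scaled to each library, so RPKM gives shares of a library and not absolute amounts. Cluster names give a start and no end, and reads per cluster are unknown. The start was not stated to count from 0 or 1. All starts fit the TAIR10.1 lengths of the 5 nuclear chromosomes.

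The members and lists were chosen with earlier results of these data known. Values were tested as log2(RPKM + 1) with limma 3.58.1 in R 4.3.3 (eBayes with trend) on 4 libraries, which pools the spread over clusters. The procedure was tested on simulated data. The authors' DESeq2 test needs counts and was not run. Named clusters were the 10 lowest and 10 highest called ones with genotypes that did not overlap, the 5 highest in Col-0, those at listed genes, and the 3 lowest and 3 highest called bins. Annotation and sequence came from RefSeq TAIR10.1. Alternatives were another pseudocount, a level filter, a replicate block, a fit over 12 libraries, another adjusted p limit, no trend, 2 rescalings, other level and position rules, single-copy clusters, other bins and leaving out each replicate. The 5 bud libraries without a column in the table were not analysed here, and 0 value columns were left unused.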

Additional observations from a re-analysis of the deposited data

How the results depend on the processing

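The count of clusters that fell (1004) lay between 994 with the level filter and 1154 with equal medians, in settings that kept both libraries of each genotype and were not limited to single-copy clusters. Among the 5268 single-copy clusters the share that fell was higher, at 14.4% (759) against 7.76% of all clusters. The share that rose there was 5.66% (298), against 5.46% of all clusters. The count that rose over all clusters (706) moved to 1464 with a pseudocount of 0.1 and to 368 with equal medians. Bins that fell (12) numbered 23 with a pseudocount of 0.1, 2 with 21 nt scaling, 31 with equal medians and from 2 to 19 without single libraries. Bins that rose (10) numbered 0 with 21 nt scaling, 2 with equal medians, 24 with bins of 500 kb and from 0 to 14 without single libraries. Where 1 library of a genotype remained, limma assumed that it varies like the other genotype. With equal medians the median log2 fold change was 0.19, the sum 81.4% of Col-0 and the median cluster 116% of Col-0. The sum was 98.6% without the highest 1% of clusters, 113.0% for the median cluster, and 92.1% without the MIR163 cluster, an alternative chosen after seeing the data.

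The difference of 0.97 between the lowest and highest decile was 1.27 with a pseudocount of 0.1, 0.54 with levels from all 4 libraries and 1.50 in single-copy clusters, and from 0.96 to 1.04 without single libraries. The pericentromere minus arms difference (0.32) was 0.39 with a pseudocount of 0.1, 0.31 for both 2 Mb and 5 Mb, 0.095 relative to level and 0.43 in single-copy clusters, and from 0.30 to 0.35 without single libraries. The CLSY4 cluster (-0.029) lay between -0.13 and 0.069 without single libraries and was above 0 without NRPD1-3xF_WT replicate 2 (0.061) and without Col-0 replicate 1. With the replicate number as a block, 1004 clusters fell, 706 rose, and 12 and 10 bins fell and rose; deviations of same-numbered replicates had a correlation of -0.0062 over clusters, so the numbers were not taken as pairs. The rest of the settings left each named cluster on its side of the limits, except at RDR2 and QQS as given above. Depth per cluster is unknown, and 2 libraries per genotype limit the precision of all values.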
